A study of Mus musculus with 12 samples.

Results

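The interleukin-6 (IL-6) family was followed here through 9 genes, 4 ligands (Il6, Lif, Il11 and Clcf1) and 5 receptor chains (Il6ra, Il11ra1, Il6st, Osmr and Lifr), out of 57010 Ensembl gene IDs counted in primary mouse chondrocytes. Members were taken by symbol, and each symbol matched 1 ID. Messenger RNA was counted in 12 libraries: 4 labelled Control, 4 labelled WT, from cells given a wild-type plasmid, and 4 labelled SIRT5F101L mutant, from cells given a plasmid for a SIRT5 mutant, called SIRT5F101L below. All cells carry the wild-type genotype in the labels. What the control cells received, the protein that the wild-type plasmid encodes, the promoter on the plasmids, and the strain and age of the animals are not given in the sources used here. The labels do not say whether the 4 libraries of a group came from separate cultures or animals, so p-values measure the spread between these libraries, which may be technical.

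Cytokines of this family signal through a shared membrane chain, gp130, which Il6st encodes. IL-6 and IL-11 first bind a private receptor, the products of Il6ra and Il11ra1, and the complex then pairs gp130 chains. LIF pairs gp130 with the LIF receptor (Lifr), and oncostatin M in the mouse pairs it mainly with the oncostatin M receptor (Osmr). The assembled receptors activate JAK kinases and the transcription factor STAT3, which induces its own inhibitor SOCS3. In cartilage the family is known for its part in inflammatory signalling and in the breakdown of matrix.

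The 3 ligand genes among the members with counts above background all rose in both plasmid groups, so the stretches before their start sites are shown first. Each stretch covers 250 bases up to the RefSeq start (GRCm38.p6), on the gene's strand, from a table in which 8 of the 9 members had a window and Clcf1 did not. Capitals mark matches to 5 motifs that were searched on both strands: the NF-kB consensus of 10 bases, AP-1 (TGANTCA), C/EBP (TTGNNCAA), the cyclic AMP response element (TGACGTCA) and a STAT site (TTCNNNGAA).
Il6 (chr5:30012864-30013113, + strand): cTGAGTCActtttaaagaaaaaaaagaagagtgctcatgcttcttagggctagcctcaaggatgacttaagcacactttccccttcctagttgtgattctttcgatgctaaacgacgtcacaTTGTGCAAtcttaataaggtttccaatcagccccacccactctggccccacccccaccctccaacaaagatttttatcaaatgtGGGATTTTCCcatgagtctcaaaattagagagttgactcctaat
Lif (chr11:4257318-4257567, + strand): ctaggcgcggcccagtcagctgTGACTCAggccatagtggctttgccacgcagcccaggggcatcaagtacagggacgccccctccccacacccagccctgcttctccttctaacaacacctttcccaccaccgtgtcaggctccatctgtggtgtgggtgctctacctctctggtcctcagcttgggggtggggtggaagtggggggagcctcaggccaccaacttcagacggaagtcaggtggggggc
Il11 (chr7:4778142-4778391, - strand): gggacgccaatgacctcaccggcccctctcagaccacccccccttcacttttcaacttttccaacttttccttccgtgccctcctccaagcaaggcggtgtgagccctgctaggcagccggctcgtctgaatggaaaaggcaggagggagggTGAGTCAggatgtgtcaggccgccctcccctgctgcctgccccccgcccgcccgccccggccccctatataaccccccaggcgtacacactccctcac
An AP-1 match stood in all 3 stretches. It lay at -249 to -243 from the start in Il6, at -228 to -222 in Lif and at -98 to -92 in Il11. Il6 also held a C/EBP match at -128 to -121 and an NF-kB match at -44 to -35, and none of these matches overlapped. Among all 32851 windows in the table, 6.75% held the AP-1 letters, 5.65% the C/EBP letters, 5% the NF-kB consensus, 1.55% the response element and 7.02% the STAT site. A further start of Il11 and the 7 windows of the 5 receptor genes held no match to these 5 motifs. Several of those windows lay within annotated exons in GENCODE M21. Exons covered all 250 bases for Il6ra and for Osmr, 247 in 1 of the Il11ra1 windows and 173 at the further Il11 start. For 1 of the Lifr windows, the bases after the start were not found in a GENCODE transcript of the gene. Motif matches describe letters in a window and say nothing of binding.

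Library totals ran from 15095357 to 24242139 counts, so that 3 counts, taken as the floor below which values have no order, were worth 0.124 to 0.199 CPM, the count scaled to library size. Sirt5, the gene named on the mutant plasmid, was barely detected, at 11, 15, 9 and 16 counts in the Control libraries in order of replicate, 9, 9, 8 and 1 in WT, and 9, 19, 15 and 10 in SIRT5F101L. No rise over control was detectable (log2 fold change -0.86, SE 0.49, edgeR adjusted p 0.143 for WT, and 0.03, SE 0.45, adjusted p 0.954 for SIRT5F101L). Directions below therefore belong to libraries labelled WT or SIRT5F101L. Chondrocyte markers were present in every group, with all 10 of a marker list detected and summed levels of 9042 to 11347 CPM in Control, 2816 to 2932 in WT and 2295 to 2540 in SIRT5F101L. Of the 10, 8 were lower in each plasmid group, and 2 were higher in WT and 1 in SIRT5F101L. Of all genes tested 28.1% and 30.7% were lower and 28.7% and 30.0% higher in WT and SIRT5F101L. SIRT5F101L replicate 1 stood apart from its group and beside WT libraries on the second principal component of log2 CPM (20.3, against -23.5 to -17.0 in the other 3), which held 5.66% of the variance. WT replicate 1 lay between the plasmid groups there, at -1.07, against 12.45 to 20.05 in the other 3 WT libraries. Results that change without SIRT5F101L replicate 1 are given both ways.

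Il6 (ENSMUSG00000025746), which encodes the founding ligand of the family, rose more than any other member in both plasmid groups. Its level, as CPM scaled by TMM, was 1.92, 1.77, 1.17 and 1.80 in Control replicates 1 to 4, 69.8, 75.6, 76.3 and 80.3 in WT, and 92.5, 99.9, 90.8 and 93.5 in SIRT5F101L. All 8 plasmid libraries lay far above all 4 controls, which held only 22 to 35 counts each. The mean rose from 1.67 ± 0.34 CPM (SD, n = 4) to 75.5 ± 4.34 in WT, 45.3-fold or 5.50 on the log2 scale (SE 0.11, edgeR adjusted p 3.03e-19). In SIRT5F101L it was 94.2 ± 3.995 CPM, 56.4-fold above control or 5.82 on the log2 scale (SE 0.11, edgeR adjusted p 1.12e-19). Ranked from the highest fold change among 14253 genes tested, Il6 stood at 34 for WT and at 31 for SIRT5F101L.

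Lif (ENSMUSG00000034394), the gene of leukemia inhibitory factor, rose second most. It stood at 4.18, 4.01, 3.68 and 4.10 CPM in Control, at 62.4, 64.8, 66.1 and 54.2 in WT and at 73.0, 70.3, 75.2 and 80.3 in SIRT5F101L. No plasmid library came near a control library. The rise was 15.5-fold in WT (log2 fold change 3.95, SE 0.09, edgeR adjusted p 5.82e-18) and 18.7-fold in SIRT5F101L (4.23, SE 0.09, adjusted p 2.00e-18).

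Il11 (ENSMUSG00000004371), a ligand made by many mesenchymal cells, rose less. Its levels were 2.27, 1.83, 2.24 and 1.37 CPM in Control, 11.9, 14.1, 13.2 and 11.1 in WT, and 13.6, 12.5, 10.9 and 11.6 in SIRT5F101L. The plasmid groups overlapped each other and lay above every control. The rise was 6.51-fold in WT (log2 fold change 2.70, SE 0.15, edgeR adjusted p 6.34e-12) and 6.31-fold in SIRT5F101L (2.66, SE 0.15, adjusted p 7.88e-12).

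Clcf1 (ENSMUSG00000040663), which encodes cardiotrophin-like cytokine factor 1, was at or near 0 throughout. It had 0, 0, 2 and 0 counts in Control, 0, 3, 0 and 0 in WT, and 2, 0, 0 and 0 in SIRT5F101L, all at or under the floor, and did not pass the expression filter. No fold is given. In GENCODE M21 8.17% of its exon sequence is shared with another gene on the same strand, AC109138.7, which had 0 to 16 counts.

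**Figure D1:**
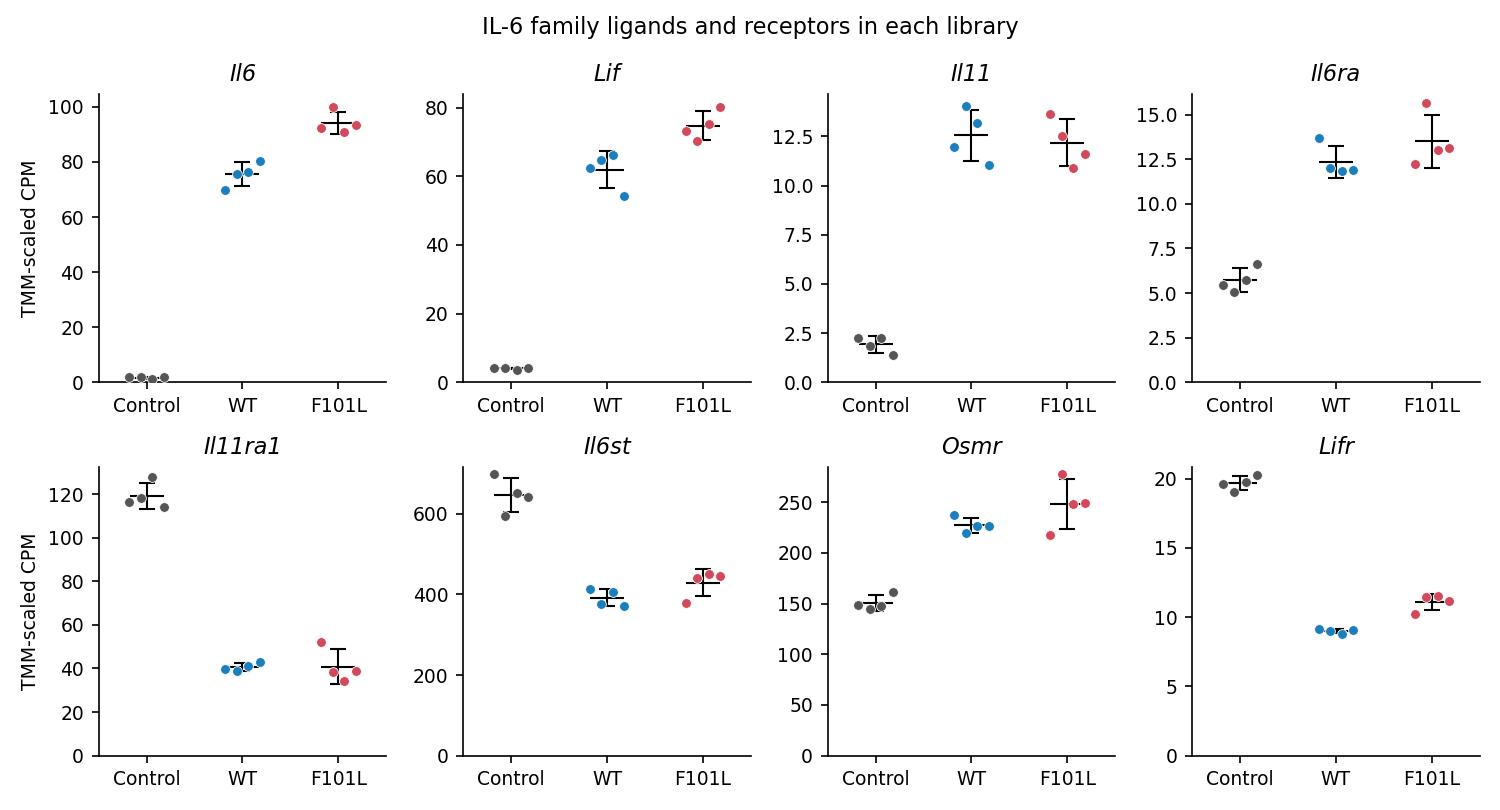
TMM-scaled CPM (y axes, from 0, a scale of its own in each panel) of the 8 tested members in the 4 Control, 4 WT and 4 SIRT5F101L (F101L) libraries. Points are libraries, and bars are the mean and SD; in every panel all plasmid libraries lie on 1 side of all controls.

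The private receptor of IL-6 rose with its ligand, and that of IL-11 fell. Il6ra (ENSMUSG00000027947) was at 5.46, 5.07, 5.75 and 6.61 CPM in Control, 13.7, 11.99, 11.8 and 11.9 in WT, and 12.2, 15.7, 13.0 and 13.2 in SIRT5F101L. The lowest plasmid library lay well above the highest control. The rise was 2.16-fold in WT (log2 fold change 1.11, SE 0.12, edgeR adjusted p 9.63e-08) and 2.36-fold in SIRT5F101L (1.24, SE 0.12, adjusted p 1.74e-08). A stretch of 2.80% of its exon sequence overlaps a gene on the other strand.

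Il11ra1 (ENSMUSG00000073889) had the deepest fall among the members. It was at 116, 118, 128 and 114 CPM in Control, 39.7, 38.7, 41.0 and 42.9 in WT, and 52.2, 38.4, 34.1 and 38.8 in SIRT5F101L. SIRT5F101L replicate 1 was the highest plasmid library and still lay far below the controls. The log2 fold change was -1.55 in WT (SE 0.10, edgeR adjusted p 2.16e-11) and -1.54 in SIRT5F101L (SE 0.10, adjusted p 2.26e-11), or -1.68 without that library. Its longest transcript in GENCODE M21 has copies of at least 95% identity over 99.0% of its length, in Il11ra2 and Gm13305. Those genes had 0 or 1 count and 0 counts in each library, and how reads were shared out among the copies is not given, so the level of Il11ra1 is uncertain.

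Among the signalling chains, Il6st and Lifr fell while Osmr rose. Il6st (ENSMUSG00000021756), the shared gp130 chain, stood at 699.6, 595, 651 and 642 CPM in Control, 414, 376, 405 and 372 in WT, and 379, 441, 450 and 445 in SIRT5F101L. All controls lay above all plasmid libraries, and SIRT5F101L replicate 1 was the lowest of its group. Its log2 fold change was -0.72 in WT (SE 0.07, edgeR adjusted p 1.57e-08), 1.65-fold lower, and -0.59 in SIRT5F101L (SE 0.07, adjusted p 2.56e-07), 1.51-fold lower.

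Lifr (ENSMUSG00000054263), the chain that binds LIF, was at 19.6, 19.0, 19.8 and 20.3 CPM in Control, 9.18, 8.98, 8.78 and 9.05 in WT, and 10.3, 11.4, 11.5 and 11.2 in SIRT5F101L. The 3 groups did not overlap. It was 2.18-fold lower in WT (log2 fold change -1.13, SE 0.09, edgeR adjusted p 8.58e-10) and 1.77-fold lower in SIRT5F101L (-0.83, SE 0.09, adjusted p 6.33e-08).

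Osmr (ENSMUSG00000022146), the chain that binds oncostatin M, moved the other way. Its levels were 149, 145, 147 and 162 CPM in Control, 238, 220, 227 and 226 in WT, and 218, 278, 248 and 249 in SIRT5F101L. Every plasmid library exceeded every control. The rise was 1.51-fold in WT (log2 fold change 0.60, SE 0.07, edgeR adjusted p 2.35e-07) and 1.65-fold in SIRT5F101L (0.72, SE 0.07, adjusted p 1.38e-08).

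In all, 8 of the 9 members passed the expression filter and all 8 differed from control in each plasmid group by edgeR's quasi-likelihood test, against 56.8% of all genes tested for WT and 60.7% for SIRT5F101L. In both groups 5 were higher, where 28.7% and 30.0% of all genes were, and 3 were lower, where 28.1% and 30.7% were. The groups did not overlap for any of the 8, which held for 53.5% and 51.3% of all genes. The median log2 fold change of the 8 was 0.85 and 0.98, beside -0.01 and -0.02 over all genes tested. Both comparisons use the same 4 control libraries, so their matching directions are not 2 independent observations. In whole-culture RNA, fewer cells of a type and less RNA per cell cannot be told apart.

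**Figure D2:**
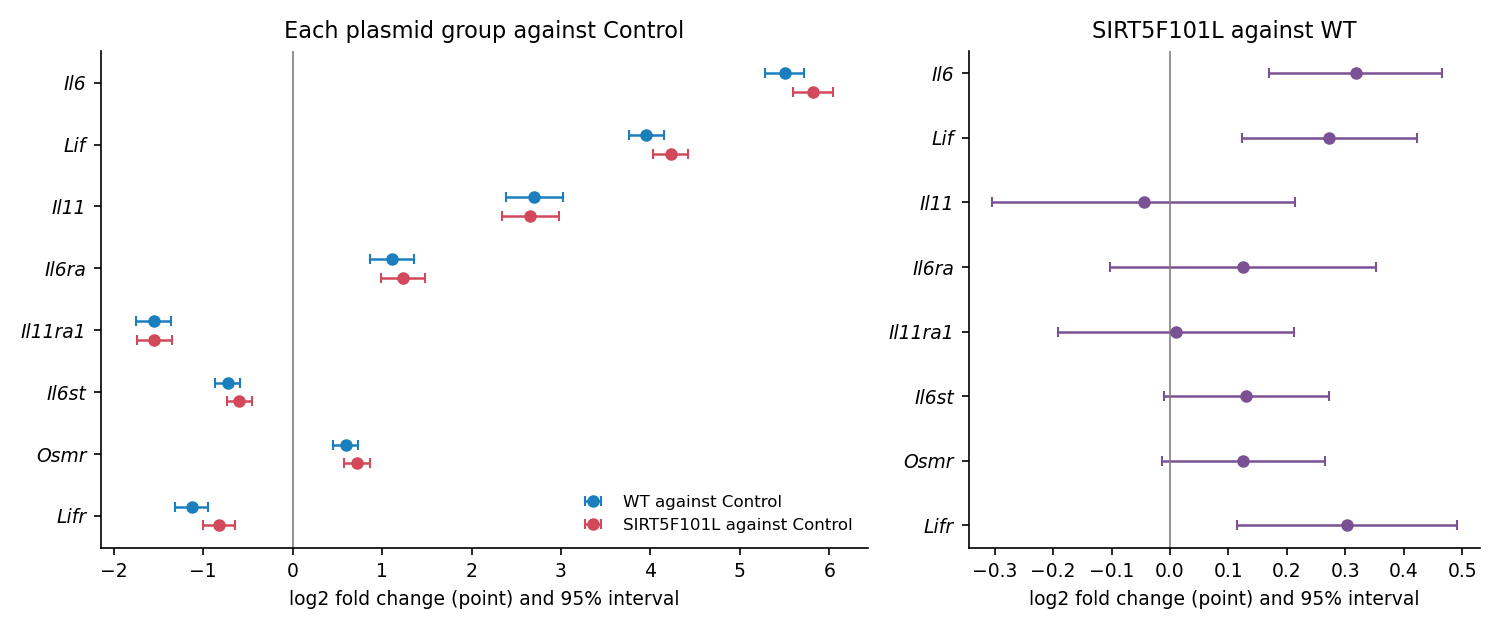
Log2 fold changes (x axes) of the 8 tested members from edgeR, with 95% intervals as bars: left, WT and SIRT5F101L against Control; right, SIRT5F101L against WT on a finer scale. Il6 lies at 5.50 and 5.82 on the left, and on the right no difference passed the adjusted threshold.

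Levels of different genes were then compared per kilobase (kb) of merged exon length in GENCODE M21. In Control the order of mean CPM per kb was Il6st (58.3), Il11ra1 (26.6), Osmr (12.4), Lifr (1.83), Il11 (0.92), Lif (0.92), Il6 (0.69) and Il6ra (0.66). Il11 (0.656 to 1.09) overlapped Lif, Il6 and Il6ra, and Il6 overlapped Il6ra, so the order within those pairs is not resolved. Receptor chains other than Il6ra thus stood above every ligand among the members in control cells. In WT the order was Il6st (35.3), Il6 (31.1), Osmr (18.8), Lif (14.2), Il11ra1 (9.07), Il11 (6.03), Il6ra (1.43) and Lifr (0.83), with no overlap between neighbours. In SIRT5F101L Il6 (38.8) and Il6st (38.6) overlapped, followed by Osmr (20.5) and Lif (17.2), which also overlapped, then Il11ra1 (9.15), Il11 (5.85), Il6ra (1.56) and Lifr (1.03). Il6 moved from below Lif to above it, Osmr from below Il11ra1 to above it, and Il6ra from below Lifr to above it. Merged exons count sequence that a given transcript may not use, so levels per kb depend on the annotation.

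**Figure D3:**
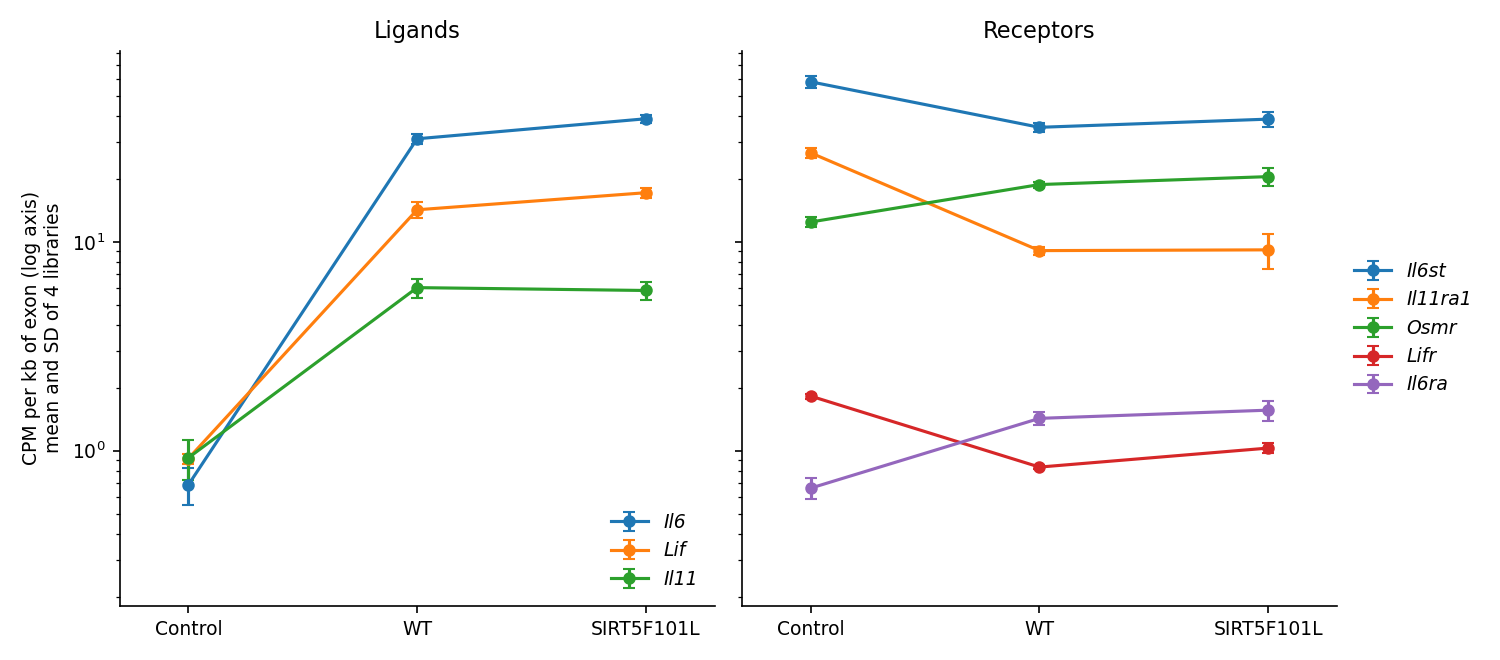
CPM per kb of merged exon (y axis, log scale) of 3 ligands (left) and 5 receptor chains (right), as mean and SD of 4 libraries in each group; lines only join the means of 1 gene. The means of all 3 ligands lie under 1 CPM per kb in Control, and that of Il6 reaches 31.1 and 38.8 in the plasmid groups.

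Ratios between members within a library do not depend on how libraries are scaled, so they were examined as a description. Il6 per kb was 0.571 to 0.821 times Lif in the 4 Control libraries, 2.004 to 2.66 times in WT and 2.09 to 2.55 times in SIRT5F101L. Among the receptors, Il6ra rose from 0.0100 to 0.0132 times Il6st in Control to 0.0375 to 0.0424 times in WT and 0.0371 to 0.0457 times in SIRT5F101L. The ratio of Osmr to Il6st was 0.195 to 0.231 in Control, 0.512 to 0.558 in WT and 0.505 to 0.578 in SIRT5F101L. That of Lifr to Il6st was 0.0289 to 0.0329, 0.0223 to 0.0251 and 0.0258 to 0.0279, and that of Il11ra1 to Il6st was 0.413 to 0.492, 0.238 to 0.286 and 0.188 to 0.342. Control and plasmid libraries did not overlap in any of these 5 ratios. Per kb, Osmr was 6.63 to 7.11 times Lifr in Control, 21.8 to 23.0 times in WT and 18.9 to 21.6 times in SIRT5F101L.

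**Figure D4:**
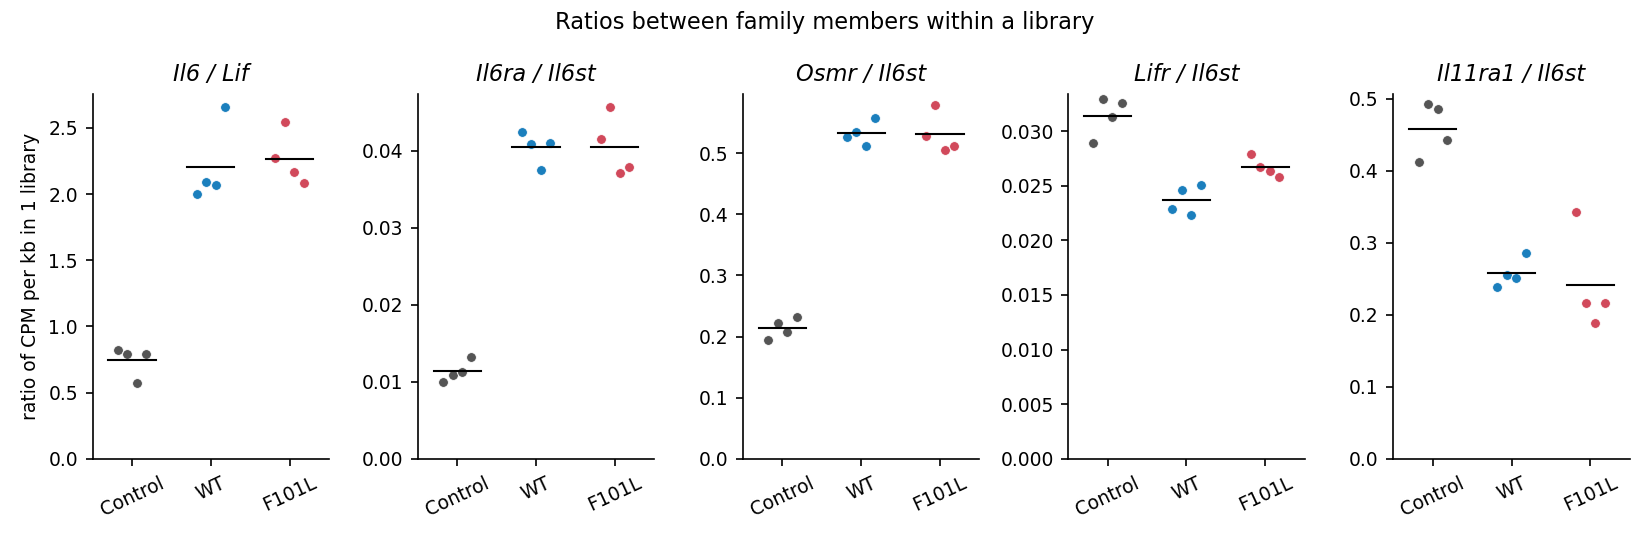
Ratios of CPM per kb between pairs of members within each library (y axes, from 0) in Control, WT and SIRT5F101L (F101L); points are libraries and bars are means. Il6ra and Osmr stand higher against Il6st in the plasmid groups, and Lifr and Il11ra1 stand lower.

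Members were next set side by side in the 2 plasmid groups. By edgeR's test with Benjamini-Hochberg adjustment, 0 of the 8 tested members differed, where 6 of 14253 genes (0.0421%) did, 0.0281% higher and 0.0140% lower. DESeq2 called 1 of the 8 and 37 genes in all. An unadjusted edgeR p under 0.05 was found for 3 members, Il6, Lif and Lifr, and for 1701 of the 14253 genes. The same 3 had no overlap between the groups, which held for 4.02% of all genes. Il6 was 1.25-fold higher in SIRT5F101L (log2 fold change 0.32, 95% interval 0.17 to 0.47, edgeR adjusted p 0.137), with 90.8 to 99.9 CPM against 69.8 to 80.3. DESeq2 gave Il6 0.32 with an adjusted p of 0.00603, and over all 20 alternatives its adjusted p ran from 0.00141 to 0.602. Lif differed by 0.27 (interval 0.12 to 0.42, edgeR adjusted p 0.241) and Lifr by 0.30 (0.11 to 0.49, adjusted p 0.319).

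Differences between the plasmid groups were smaller for the other members. They were 0.13 for Il6st (95% interval -0.01 to 0.27), 0.13 for Osmr (-0.01 to 0.26) and 0.12 for Il6ra (-0.10 to 0.35). For Il11 the difference was -0.05 (-0.30 to 0.21) and for Il11ra1 0.01 (-0.19 to 0.21), so changes of up to about these bounds are not excluded by the intervals. The count of called members rested on 1 library. Without SIRT5F101L replicate 1, 5 of 8 members were called and all 5 were higher in SIRT5F101L, where 6.66% of 14528 genes were higher and 8.58% lower. They were Il6 (0.33, SE 0.07, edgeR adjusted p 0.00141), Lif (0.29, adjusted p 0.00688), Lifr (0.34, adjusted p 0.0244), Osmr (0.18, adjusted p 0.0284) and Il6st (0.19, adjusted p 0.0306). Without any other single library 0 of 8 were called. What sets that library apart was not tested.

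Of the other ligands of the family, only Ctf1 passed the filter. Ctf1 (ENSMUSG00000042340), the gene of cardiotrophin 1, was at 8.69 to 11.3 CPM in Control, 4.43 to 5.66 in WT and 3.85 to 6.58 in SIRT5F101L, with no overlap between control and plasmid libraries. It fell by 1.0 on the log2 scale in WT (SE 0.16, edgeR adjusted p 1.80e-05) and by 0.99 in SIRT5F101L (SE 0.16, adjusted p 1.82e-05). Osm, the gene of oncostatin M, had 3 to 9 counts per library in Control, 2 to 8 in WT and 0 to 9 in SIRT5F101L. Il27 had 0 to 7 counts, Ebi3 0 to 7 and Il31 0 to 3 over the 12 libraries. Cntf was listed at 0 in all of them, and 78.9% of its exon sequence is shared with Zfp91, which was also listed at 0.

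Of the other receptors and partners, Il31ra, a receptor chain for IL-31, was at 2.02 to 3.30 CPM in Control, 1.68 to 2.93 in WT and 2.14 to 5.78 in SIRT5F101L and was not called. Without SIRT5F101L replicate 1 it was called higher in SIRT5F101L than in Control (log2 fold change 0.66, edgeR adjusted p 0.0219) and than in WT (0.90, adjusted p 0.0151). Cntfr and Il27ra had at most 15 and 18 counts in a library and were not tested, nor was Il11ra2.

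The share of relay genes called was near that of all genes. Of 11 tested JAK-STAT relay genes 4 were higher and 2 lower in WT, and 4 were higher and 3 lower in SIRT5F101L, where 28.7% and 30.0% of all genes were higher and 28.1% and 30.7% lower. The median log2 fold change of the relay genes was 0.06 and 0.15. Jak1, a kinase bound to gp130, rose by 0.42 and 0.55 in WT and SIRT5F101L, and Stat3 by 0.43 and 0.42. Ptpn11, the phosphatase that links gp130 to the MAP kinase path, rose by 0.51 and 0.56. The adaptor gene Gab1 fell by 1.21 and 1.05.

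Among 7 tested feedback inhibitors, 3 were higher and 2 lower in WT, and 3 were higher and 3 lower in SIRT5F101L, where 56.8% and 60.7% of all genes were called. The 6 calls in SIRT5F101L became 3 without Control replicate 1 or without SIRT5F101L replicate 4. Socs3, the main inhibitor of gp130 signalling, went from 46.2 ± 4.81 CPM in Control to 106.7 ± 4.845 in WT and 102 ± 9.27 in SIRT5F101L (SD, n = 4). On the log2 scale that is 1.21 (SE 0.08, edgeR adjusted p 5.16e-11) and 1.15 (SE 0.08, adjusted p 1.06e-10). Ptpn2, a phosphatase that acts on JAK and STAT proteins, rose by 0.84 and 0.93. Socs1 fell by 0.52 and 0.61, and Pias1 fell by 0.38 and 0.19.

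Of 19 tested genes known as STAT3 targets, 12 were higher in both plasmid groups, and 3 were lower in WT and 4 in SIRT5F101L. Of all genes 28.7% and 30.0% were higher and 28.1% and 30.7% lower. The median log2 fold change of the 19 was 0.89 and 0.80. The 2 highest fold changes in this list were those of Saa3, a serum amyloid A gene, which rose by 7.95 and 8.02, and Lcn2, which encodes lipocalin 2 and rose by 6.16 and 6.35. Il4ra, the interleukin-4 receptor chain, rose by 2.32 and 2.29 and Hp, the haptoglobin gene, by 1.94 and 2.201. Most of these genes also answer to other factors, NF-kB among them. Hif1a and Timp1 were listed at 0 in all 12 libraries.

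Regulators of Il6 transcription and of its mRNA decay were examined as a group of 14. In both plasmid groups 10 were higher and 2 lower, where 28.7% and 30.0% of all genes were higher and 28.1% and 30.7% lower. Their median log2 fold change was 0.53 and 0.61. Nfkbiz, an NF-kB cofactor needed for Il6 induction in several cell types, rose by 2.65 and 2.81. Fosl1, an AP-1 subunit, rose by 1.89 and 1.81, but 57.2% of its exon sequence overlaps Ccdc85b on the other strand, so its counts are uncertain. Zc3h12a, which encodes a nuclease that degrades Il6 mRNA, rose by 1.30 and 1.42, and Atf4 fell by 1.25 and 1.37.

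Proteases that shed the IL-6 receptor and their cofactors made a list of 4. In WT 2 were higher and 0 lower, and in SIRT5F101L 3 were higher and 1 lower, where 56.8% and 60.7% of all genes were called. The 4 calls in SIRT5F101L became 2 with no filter beyond 1 count. Rhbdf2, a partner of the sheddase ADAM17, rose by 0.86 and 0.93, and Adam10 by 0.38 and 0.35. Between the plasmid groups edgeR called 0 genes of any of these 5 pathway lists or of the 2 lists of other family genes. With no filter beyond 1 count it called 1 STAT3 target, among 354 called of 25722 genes. Without SIRT5F101L replicate 1 it called 15.2% of all 14528 genes tested. Those included 5 of the Il6 regulators, 2 relay genes, 2 STAT3 targets, 1 feedback inhibitor and 1 of the other receptors.

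**Figure D5:**
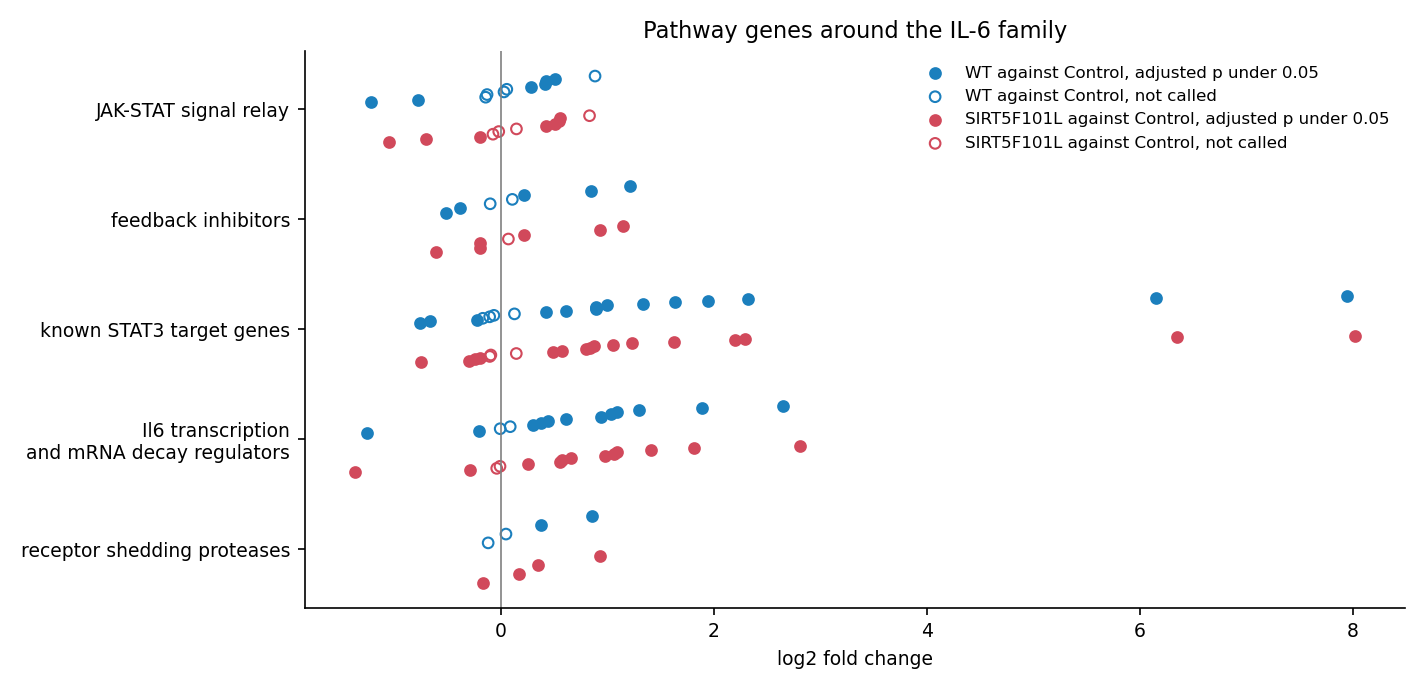
Log2 fold changes (x axis) of the tested genes of 5 pathway lists (y axis) in WT and SIRT5F101L against Control; each point is a gene, filled where the edgeR adjusted p was under 0.05. Both groups share the controls, and Saa3 and Lcn2 are the points beyond 6.

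Markers of other cells that can make or answer these cytokines were read beside the members. The macrophage list summed to 174 to 208 CPM in Control, 85.2 to 97.9 in WT and 85.3 to 109 in SIRT5F101L. All 8 of its 9 genes that were tested were lower in both plasmid groups. Of all genes 28.1% and 30.7% were lower and 28.7% and 30.0% higher in WT and SIRT5F101L. Among the 8 were Ptprc (log2 fold change -1.28 and -1.41) and Adgre1 (-2.03 and -1.90). Itgam was listed at 0 in all libraries, and 68.7% of its exon sequence is shared with Gm49368 on the same strand. The fibroblast list summed to 29646 to 35560 CPM in Control, 9659 to 11072 in WT and 9312 to 10700 in SIRT5F101L, with 1 of 6 genes higher (Pdgfra) and 5 lower in each group. The osteoblast list, at 62.6 to 72.0, 40.8 to 52.6 and 38.9 to 61.3 CPM, had 0 higher and 2 lower of 4 tested genes. That is near the 56.8% and 60.7% of all genes called in WT and SIRT5F101L. Endothelial markers summed to 3.29 to 4.88 CPM over all libraries with 0 of 4 tested genes called. Lymphocyte markers summed to at most 1.01 CPM, and Cd3e and Ms4a1 were at 0 in every library. The part of cell composition in the members' changes was not tested.

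Genes with the most similar profile to each member were found by the distance between log2 CPM values centred on their mean over the 12 libraries, among 10190 other genes that averaged 5 CPM or more. Since libraries fall into control and plasmid groups, a short distance mostly reflects a like fold change. Nearest to Il6 were Ptgs2 (distance 0.69), the inducible cyclooxygenase gene, and Ceacam19 (1.12), whose mean of 0.121 CPM in Control lies under the worth of 3 counts, so that its distance rests partly on values with no order. Lif had Havcr2 (0.63) and the chemokine gene Cxcl1 (0.67), and Il11 had Skap1 (0.54) and Pla2g4a (0.67), which encodes cytosolic phospholipase A2. Il6ra was nearest to Tlr4 (0.28) and Itgav (0.31), and Osmr to Edem3 (0.20) and Sema3c (0.20). Among the members that fell, Il6st was nearest to Wdr35 (0.17) and Ttc23 (0.20), Lifr to Mmp2 (0.28) and Cdh11 (0.28), and Il11ra1 to Cdo1 (0.32) and Fkbp7 (0.34). Ptgs2 averaged 30.4 CPM in Control, 1598 in WT and 1705 in SIRT5F101L, with log2 fold changes of 5.72 and 5.81 against control.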

How the data were processed

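The authors deposited raw counts, whole numbers for each Ensembl gene ID, with 1 library per file and no header. The submitters' processing notes list HISAT2 2.2.1, HTSeq 2.0.2, FastQC 0.11.9, DESeq2 1.38.3 and the build GRCm39, with no role or order. Per the labels, mRNA was captured with poly-T beads and sequenced as paired ends. The annotation release and strand setting are not given in the sources used here. Symbols came from a supplied table that named 52029 of 57010 IDs.

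All 12 libraries were fitted together in edgeR 4.0.16 (R 4.3.3) with TMM scaling, filterByExpr by group and 1 coefficient per group, which left 9 residual degrees of freedom. The quasi-likelihood test was 2-sided and p was adjusted by Benjamini-Hochberg over 14253 genes, with a threshold of 0.05. The standard error is the size of the log2 fold change divided by the root of F. The pipeline was tested on simulated data in which 200 genes changed. In the data 8090 of 14253 genes were called for WT, so that test does not cover changes this widespread. The floor of 3 counts covers counting error only. Within groups, library pairs differed by 2.56 to 8.92 times sampling noise, so none was a repeat deposit.

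Lengths, exon overlaps and copies (BLAST 2.17.0) came from GENCODE M21, and promoter windows from RefSeq, both on GRCm38, matched by ID or symbol. Coordinates in the text belong to that build and not to the counts. Named genes were the members, all other family genes, Jak1, Stat3 and Socs3, the 4 largest changes in WT in each other list among called genes that averaged 5 CPM or more, and the 2 nearest profiles of each member. A few genes that this rule names are not reported here. Pdgfra, Ptprc, Adgre1, Itgam, Hif1a and Timp1 and the lymphocyte genes were named after their values were seen. Members, lists and motifs were chosen with earlier results of these data known. Alternatives were RLE and upper-quartile scaling, 2 other filters, a robust prior, fits of 8 libraries, DESeq2 1.42.0 and leaving out each library. Library totals without TMM were added after the data were seen.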

Additional observations from a re-analysis of the deposited data

Results flagged for a closer look

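Levels of the members and named genes were screened within each group for a library far from the other 3, with Dixon's gap ratio. Of 91 pairs of a gene and a group, 7 stood out, where chance gives about 1 in 20, or 4.55. Of these, 2 are members. Il6ra was at 13.7 CPM in WT replicate 1, against 11.8 to 11.99 in the other WT libraries. Il6st was at 379 CPM in SIRT5F101L replicate 1, against 441 to 450. The same library held 476 CPM of Saa3, against 255 to 283, and 167 CPM of Atf4, against 133 to 137. Socs3 was at 114 CPM in WT replicate 2, against 104 to 105, and Fosl1 at 27.6 CPM in WT replicate 4, against 31.0 to 31.3. Il4ra was at 53.8 CPM in Control replicate 2, against 58.3 to 59.3. SIRT5F101L replicate 1 accounts for 3 of the 7.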

How the results depend on the processing

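Against control, all 8 tested members kept their direction and stayed under the threshold in all 20 alternatives in both plasmid groups. Scaling moved the median of all genes by less than 0.1 on the log2 scale. Between the plasmid groups the count of called genes was 6. It became 354 with no filter beyond 1 count, 2 with a robust prior, 2 with the 8 libraries compared and 37 with DESeq2. Leaving out 1 library gave 0 to 2213 genes, the highest without SIRT5F101L replicate 1, 3 without Control replicate 2 and 0 without each of the others, where 945 to 2191 genes had an unadjusted p under 0.05. The count of called members, 0 of 8, became 1 (Il6) with no filter, 1 (Il6) with DESeq2 and 0 to 5 when 1 library was left out. The difference for Il11 turned positive without WT replicate 2 (0.010) and without SIRT5F101L replicate 3 (0.0085), and ran from -0.1043 to 0.010 when 1 library was left out. That for Il11ra1 turned negative without WT replicate 1 (-0.0016), WT replicate 2 (-0.012) and SIRT5F101L replicate 1 (-0.13), and ran from -0.13 to 0.09124. The count of called shedding proteases in SIRT5F101L against control went from 4 to 2 with no filter, that of feedback inhibitors from 6 to 3 without Control replicate 1 or SIRT5F101L replicate 4, and that of other receptors from 1 to 2 without SIRT5F101L replicate 1. The cause was not tested. No paired analysis was possible because the labels number the samples through all groups without repeats, and replicate numbers here only name libraries in accession order. For Clcf1 and the other genes at the floor no change could be measured. Whether depth or sequence shared with other genes set those counts was not tested.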
